A study of Brassica napus with 12 samples.

Results

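The genes described are those of the C subgenome of oilseed rape (*Brassica napus*) that have a place on a chromosome. They were chosen by their identifiers, from BnaC01g to BnaC09g, and identifiers with nn in place of a chromosome number were left out. This gave 48178 of the 101038 genes counted, with 40250 further genes on chromosomes A01 to A10, 7875 C genes without a chromosome and 4735 other genes without one. C03 held the most (7835) and C06 the fewest (4400), and the remaining chromosomes held 4498 (C01), 4893 (C02), 5696 (C04), 5226 (C05), 5135 (C07), 5018 (C08) and 5477 (C09). The identifiers are numbered along each chromosome, so genes with neighbouring numbers could be read as neighbours, within the limits given with each run.

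The RNA was extracted from the root tips of Drakkar and Duplo, which are spring oilseed rape varieties. Seedlings germinated for 3 days and then grew for 7 days at 21 °C (the control) or at 29 °C (warm temperature) in pouches with a paper wick. Each of the 4 groups had 3 biological replicates, and each replicate was a pool of 18 seedlings from 3 experimental units, which gave 12 libraries. Reads on named genes numbered 33554220 to 39934384 per library in Drakkar at 21 °C and 26790589 to 30549701 at 29 °C, against 29950049 to 33738867 and 26554987 to 31701607 in Duplo. Root tip markers could not be checked, because the annotation used names only 1019 of the C genes (2.12%) and none of those markers among them. The growth room at each temperature and the temperature itself cannot be told apart in this design, and in bulk tissue fewer cells of a type and less RNA per cell cannot be told apart either.

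*B. napus* is an allotetraploid: it carries the A genome of *B. rapa* and the C genome of *B. oleracea*, so most genes have a near-identical partner, the homoeologue, on the other subgenome. Long parts of A03 and C03, and of A05 and C05, are homoeologous to each other. Exchanges between homoeologous chromosomes, in which a stretch of one subgenome is lost and its partner is duplicated, and the presence or absence of genes between varieties are known features of the species. A read that falls where partners are identical can be counted to either, so the value of a single gene is less certain than that of a long stretch. DNA was not measured in these samples.

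Of the C genes, 12 had qPCR primers in the study. The pairs of 3 of them are shown because these genes return below. BnHSP17.6II lies inside the longest stretch of C03 that differed between the varieties. BnXTH24 on C07 changed with temperature and differed between the varieties at 29 °C, and BnACT7 on C02 was a reference gene. Sequences run 5′ to 3′, and F and R are the forward and reverse primers.
BnHSP17.6II (BnaC03g05240D) F: aatcctcgaagacatgctaga
BnHSP17.6II (BnaC03g05240D) R: ccaggcatgtccaccacgaa
BnXTH24 (BnaC07g42500D) F: aatgtgcaacaagcgcataga
BnXTH24 (BnaC07g42500D) R: agaatcaaacccaacccaagc
BnACT7 (BnaC02g00690D) F: tgggtttgctggtgacgat
BnACT7 (BnaC02g00690D) R: tgcctaggacgaccaacaatact

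BnACT7 encodes an actin and varied little. Its level in Drakkar was 361, 396 and 367 CPM (counts of a gene scaled to the library total) at 21 °C and 403, 374 and 366 at 29 °C. In Duplo it was 355, 333 and 342 CPM at 21 °C and 408, 405 and 306 at 29 °C. At 21 °C every Drakkar library lay above every Duplo library, and the difference was not called (log2FC −0.12 ± 0.0606, SE, edgeR adjusted p = 0.24). The other pairs of groups overlapped, and none of the 4 comparisons called it.

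The chromosomes were first compared by the reads they took. C01 to C09 together held 44.7% to 45.2% of the counts of a Drakkar library and 44.3% to 44.5% of a Duplo library, and the varieties did not overlap (means 44.85% ± 0.188 and 44.44% ± 0.0879, SD, n = 6 libraries each, both temperatures). C03 and C05 also did not overlap between the varieties. C03 took 8.50% to 8.65% in Drakkar and 7.93% to 8.26% in Duplo, and C05 took 5.03% to 5.18% in Drakkar and 5.25% to 5.41% in Duplo. The 2 chromosomes thus moved in opposite directions. The ranges of the other C chromosomes overlapped: C02 had the smallest share, 3.39% to 3.71% in Drakkar and 3.55% to 3.73% in Duplo, and C09 had 5.02% to 5.25% and 4.91% to 5.12%. In the same libraries A03 went from 7.21%–7.45% in Drakkar to 7.46%–7.88% in Duplo, and A05 from 4.42%–4.57% to 4.23%–4.32%. A03 and A05 each differed in the direction opposite to that of the C chromosome it is largely homoeologous to. A share without overlap between the varieties was not particular to A03 and A05. A02 (3.78% to 4.02% in Drakkar, 3.65% to 3.73% in Duplo) and A10 (2.86% to 3.08% and 3.21% to 3.38%) did not overlap either. The Duplo mean was 112% of Drakkar on A10, 106% on A03 and 94.7% on A02. On C02 and C09, whose ranges overlapped, it was 105% and 96.4%. Whether A02 and A10 also moved against their homoeologous C chromosomes was not tested.

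**Figure D1:**
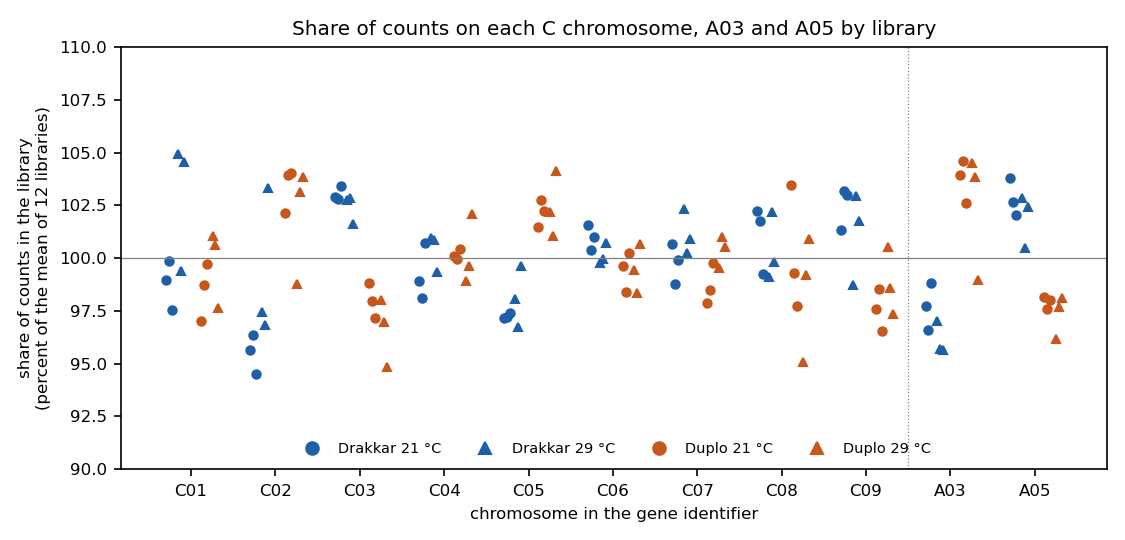
Share of a library's counts on each C chromosome, as a percent of the mean share over the 12 libraries (vertical axis, not starting at 0), for C01 to C09 and, after the dotted line, A03 and A05 (horizontal axis). Each point is 1 library, with the variety as colour and the temperature as shape. All Drakkar points lie above all Duplo points on C03 and A05 and below them on C05 and A03. A02 and A10, where the varieties also did not overlap, are not shown.

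A gene was taken as detected in a library at 1 CPM or more. Between 19659 and 20879 C genes were detected per Drakkar library and between 19519 and 20498 per Duplo library, on average 41.5% of the identifiers, compared with 49.4% on the A chromosomes and 34.0% of the C genes without a chromosome. The share was lowest on C02 (34.4%) and highest on C05 (44.3%), with 43.0% on C03. On C03 the varieties did not overlap, with 3391 to 3600 genes detected in Drakkar and 3220 to 3357 in Duplo. On C05 they overlapped, with 2226 to 2367 and 2287 to 2436.

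The varieties were then compared gene by gene within each temperature. A gene was called when the adjusted p-value (edgeR's quasi-likelihood test, Benjamini-Hochberg adjustment over all genes of both subgenomes) was below 0.05 and the log2 fold change (log2FC, Duplo over Drakkar) was past 1 in either direction. At 21 °C, 24051 of the 48178 C genes passed the filter on low counts, and 1388 of them were higher in Duplo (5.77%) and 1509 lower (6.27%). Over all genes tested the shares were 6.09% higher and 6.25% lower. At 29 °C, 24149 C genes were tested, and 1165 were higher in Duplo and 1491 lower, beside 5.17% and 5.96% of all genes tested. The C genes as a whole were thus near the background, and the chromosomes differed among themselves.

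C03 had the most genes lower in Duplo. At 21 °C, 535 of its tested genes were lower (13.1%) and 270 higher (6.60%), and at 29 °C the counts were 525 (12.8%) and 227. C05 leaned the other way, with 189 genes higher in Duplo (6.90%) and 69 lower (2.52%) at 21 °C, and 164 and 55 at 29 °C. On C01 (147 higher, 154 lower), C07 (134 and 129), C08 (100 and 127), C04 (164 and 127) and C06 (148 and 117) the directions were closer to even at 21 °C, while C02 had 136 higher and 95 lower and C09 had 100 higher and 156 lower. At 29 °C C09 again had more genes lower (134) than higher (74) in Duplo, whereas C02 had 101 lower and 99 higher. The difference between chromosomes was not tested.

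The order of the identifiers showed where these genes lay. A run was 5 or more successive tested genes, all called in the same direction at 21 °C, and its genes were then read in the 29 °C libraries, which had no part in choosing them. The C chromosomes held 39 runs with 427 genes, 22 runs lower in Duplo (277 genes) and 17 higher (150 genes), while A01 to A10 held 14 runs. Of the 413 run genes tested at 29 °C, 387 were called in the same direction (93.7%) and 0 in the opposite one. Of the 2344 genes called outside runs at 21 °C and tested at 29 °C, 1692 were called in the same direction (72.2%). Most run genes (353, 82.7%) lay in 2 segments, one on C03 and one on C05, found by joining runs of the same direction at most 20 tested genes apart.

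**Figure D2:**
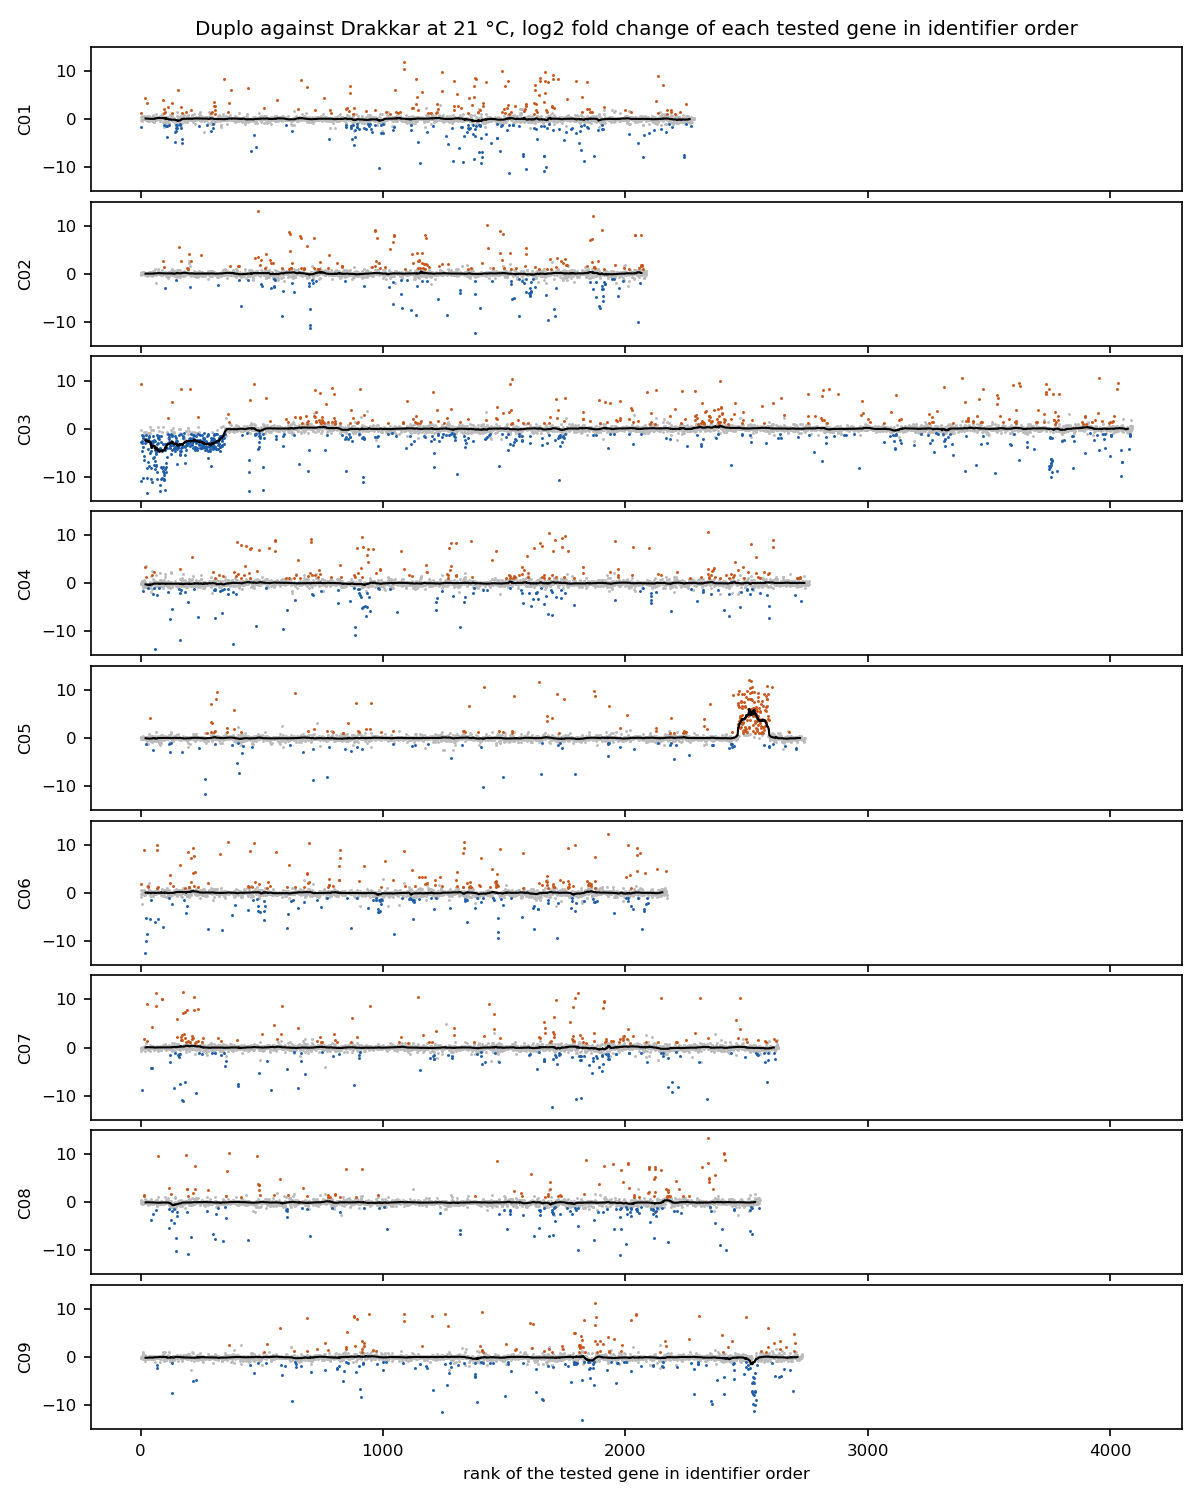
Difference between the varieties at 21 °C (log2FC, Duplo over Drakkar, vertical axis) for the tested genes of each C chromosome in the order of their identifiers (horizontal axis). Blue points were called lower in Duplo, orange points higher and grey points were not called, and the black line is the median over windows of 40 tested genes. The line leaves 0 most at the start of C03 (downwards, window median to −4.82) and near the end of C05 (upwards, to 6.07), less at the end of C09 (−1.54), and by just over 0.5 on C08 (−0.59), C03 (0.52) and C02 (0.51).

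The C03 segment ran from BnaC03g00070D to BnaC03g05670D, near the start of the chromosome's numbering, with 6 identifiers before it. It held 561 identifiers and 19 runs. Of its 337 genes tested at 21 °C, 287 were lower in Duplo (85.2%), 5 were higher and 45 were not called, with a median log2FC of −3.00. At 29 °C 290 of 339 were lower (85.5%) and 4 were higher, and the median was −3.88. A group with 3 counts or fewer in every library gives a fitted fold that is no bound, and with these genes at the fold against 3 counts (41 at 21 °C and 107 at 29 °C) the medians were −2.91 and −3.34. Its share of the library's counts in Drakkar was 0.718%, 0.726% and 0.719% at 21 °C and 0.685%, 0.724% and 0.679% at 29 °C. In Duplo it was 0.176%, 0.111% and 0.134% at 21 °C and 0.114%, 0.115% and 0.117% at 29 °C. Every Drakkar library lay above every Duplo library, by 5.55-fold between the means (0.708% ± 0.0211 and 0.128% ± 0.0249, SD, n = 6). The 21 °C libraries in these means chose the segment, so their separation was fixed by that choice. The 29 °C libraries had no part in it, and there the shares were 0.679% to 0.724% in Drakkar and 0.114% to 0.117% in Duplo. Between 296 and 315 of its genes reached 1 CPM in a Drakkar library. In Duplo 179, 123 and 157 did at 21 °C and 136, 134 and 135 at 29 °C.

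The segment held 53.6% of the genes of C03 that were lower in Duplo. Outside it, C03 took 7.82% to 7.93% of the counts in Drakkar and 7.81% to 8.09% in Duplo, which overlapped. Of its 3756 tested genes there, 265 were higher and 248 lower at 21 °C. The extent of the segment was less certain than its direction: joined at 10 tested genes it held 202 tested genes, and without Drakkar 21 °C replicate 1, Drakkar 21 °C replicate 3 or Duplo 21 °C replicate 3 it held 194, 190 and 122.

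The segment was described in 2 pieces, split where the runs were more than 10 tested genes apart. The first, BnaC03g00070D to BnaC03g01980D (192 identifiers), had 103 of 120 tested genes lower in Duplo at 21 °C (85.8%, median log2FC −3.28) and 108 of 121 at 29 °C (median −3.91). The second, BnaC03g02280D to BnaC03g05670D (340 identifiers), had 175 of 202 lower at 21 °C (86.6%, median −2.91) and 173 of 203 at 29 °C (median −3.89). To compare libraries, each gene's CPM was set against its mean over the 6 Drakkar libraries of both temperatures. Only genes with at least 1 CPM in each of these libraries and a mean of 5 CPM or more entered. Genes low in Drakkar could thus not enter, and the 21 °C libraries had chosen the segment. A low level in Duplo was therefore partly fixed by these choices. In the first piece, with 77 such genes, the median level left in Duplo was 7.99%, 5.85% and 6.79% at 21 °C and 6.72%, 6.41% and 6.79% at 29 °C. In the second piece, with 125 genes, it was 19.4%, 7.66% and 12.2% at 21 °C and 6.59%, 8.32% and 6.96% at 29 °C.

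The Duplo libraries thus agreed closely in the first piece and spread in the second at 21 °C. Duplo 21 °C replicate 1 stood highest there, with 22 of the 125 genes below 10% of Drakkar, against 74 in replicate 2 and 57 in replicate 3, and 70 to 74 in the 29 °C libraries. Without Duplo 21 °C replicate 1 the counts of lower genes were 104 of 122 in the first piece (median −3.59) and 175 of 211 in the second (median −3.29). After the segment, from BnaC03g05680D to BnaC03g08000D, 17 of 152 tested genes were lower and 4 higher, the median log2FC was −0.11 at 21 °C and 0.01 at 29 °C, and the Duplo libraries stood at 87.4% to 98.3% of Drakkar.

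**Figure D3:**
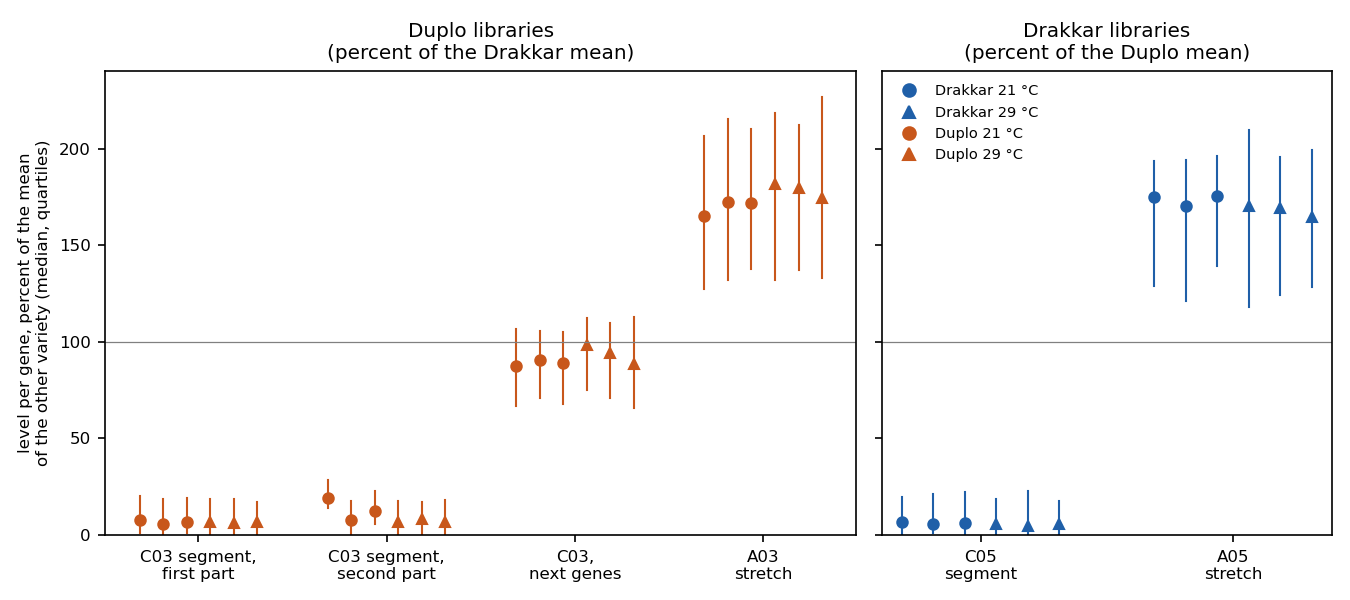
Median level per library of the genes in each stretch, as a percent of the mean of the other variety over both temperatures (vertical axis). Duplo libraries are shown for C03 and A03 (left) and Drakkar libraries for C05 and A05 (right). Each point is 1 library with a line over the quartiles of its genes. Only genes with at least 1 CPM in every library of the reference variety and a mean of 5 CPM or more entered, so genes low in that variety are left out. The first C03 piece stood between 5.85% and 7.99%, the second between 6.59% and 19.4%, the next genes of C03 between 87.4% and 98.3%, and the A03 stretch between 165% and 181%.

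Single genes showed both behaviours. BnaC03g01750D, in the first piece, had 270, 255 and 282 CPM in Drakkar at 21 °C and 171, 266 and 191 at 29 °C. Its level in Duplo was 1.19, 1.06 and 0.968 CPM at 21 °C and 0.852, 0.678 and 0.426 at 29 °C. All Duplo libraries were near 1 CPM or below, and the log2FC was −7.96 ± 0.123 (SE) at 21 °C (edgeR adjusted p = 5.79e-07) and −8.23 ± 0.370 at 29 °C (adjusted p = 4.95e-05). BnaC03g02860D, in the second piece, had 327, 327 and 330 CPM in Drakkar at 21 °C and 175, 299 and 157 at 29 °C. In Duplo it had 52.3, 1.35 and 19.1 CPM at 21 °C and 1.73, 0.753 and 0.604 at 29 °C. The Duplo 21 °C libraries differed from each other far more than the Drakkar libraries did, and the log2FC was −3.75 ± 0.995 at 21 °C (edgeR adjusted p = 0.0345) and −7.58 ± 0.553 at 29 °C (adjusted p = 0.000234). The call at 21 °C was lost without Drakkar 21 °C replicate 1, 2 or 3 or Duplo 21 °C replicate 3 (adjusted p = 0.0705, 0.0615, 0.0806 and 0.119).

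Not every gene of the segment was nearly absent in Duplo. BnaC03g03720D kept 156, 115 and 114 CPM at 21 °C and 126, 127 and 120 at 29 °C in Duplo, beside 415, 415 and 379 and then 365, 387 and 341 in Drakkar, a log2FC of −1.64 at 21 °C. Of the 280 genes of the segment at 1 CPM or more in all 6 libraries of at least 1 variety, 279 were so in Drakkar, 106 in Duplo and 105 in both. The 5 genes higher in Duplo at 21 °C were BnaC03g01870D (log2FC 2.27), BnaC03g02110D (5.58), BnaC03g03920D (2.34), and BnaC03g02710D and BnaC03g03450D, which had 0 reads in all 3 Drakkar libraries at 21 °C and were at least 13.9-fold and at least 12.7-fold higher in Duplo by the same floor.

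The longest run, 52 genes from BnaC03g03980D to BnaC03g04790D, lay in the second piece, with a median log2FC of −3.27 at 21 °C and −5.05 at 29 °C, where 49 of its 51 tested genes were called lower. With genes at the floor the medians were −3.21 over 52 genes and −4.16 over the 55 tested at 29 °C. Its end genes had log2FCs of −3.15 (BnaC03g03980D) and −3.64 (BnaC03g04790D) at 21 °C. The next 2 runs held 21 genes each. The first, from BnaC03g00810D to BnaC03g01170D, had a median of −4.86 (−3.89 with 7 genes at the floor), and the other, from BnaC03g04810D to BnaC03g05120D, had −2.76. BnaC03g00810D had 34.9, 29.9 and 36.4 CPM in Drakkar at 21 °C and 0.474, 0.496 and 0.434 in Duplo, with 29.7, 36.3 and 28.0 against 0.410, 0.490 and 0.355 at 29 °C. The varieties were far apart at both temperatures (log2FC −6.15 ± 0.154, SE, at 21 °C).

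Few genes of the segment carry a name. BnaC03g00710D, a copy of METALLOTHIONEIN 2A (MT2A), which encodes a metal-binding protein, had 1.39, 0.952 and 1.10 CPM in Drakkar at 21 °C and 6.71, 8.60 and 8.47 at 29 °C, and 0 reads in all 6 Duplo libraries. It rose with warmth in Drakkar (log2FC 2.67 ± 0.207, edgeR adjusted p = 0.00766). Its level in Drakkar was at least 11.95-fold higher than in Duplo at 21 °C and at least 75.7-fold at 29 °C, with each Duplo library set to 3 counts. BnaC03g01160D, a copy of CDC48C, an AAA-type ATPase, had 37.0, 36.0 and 38.2 CPM in Drakkar at 21 °C and 104, 53.1 and 92.2 at 29 °C. In Duplo it had 0.860, 2.21 and 1.10 CPM at 21 °C and 2.15, 2.33 and 4.08 at 29 °C. The difference between the varieties was similar at both temperatures (log2FC −4.73 ± 0.316 and −4.78 ± 0.369). With temperature the log2FC was 1.04 ± 0.224 in Drakkar (edgeR adjusted p = 0.0425) and 1.00 ± 0.436 in Duplo (adjusted p = 0.266).

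BnaC03g04170D, a copy of FLC, a repressor of flowering in Arabidopsis, was low throughout. It had 0.738, 0.200 and 0.417 CPM in Drakkar at 21 °C and 2.13, 1.88 and 2.91 at 29 °C, and no more than 0.134 CPM in any Duplo library. It rose with warmth in Drakkar (log2FC 2.23 ± 0.430, edgeR adjusted p = 0.0337) and was lower in Duplo at 29 °C (adjusted p = 0.000962), where it had 0 reads. BnaC03g05240D, the BnHSP17.6II gene whose primers are given above, encodes a small heat-shock protein. It had 0.0568, 0.0501 and 0.0596 CPM in Drakkar at 21 °C and 51.6, 0.278 and 92.5 at 29 °C. In Duplo it had 0, 4.03 and 0 CPM at 21 °C and 0.126, 0.339 and 0.462 at 29 °C. Drakkar 29 °C replicate 2 and Duplo 21 °C replicate 2 stood apart from the other libraries of their groups. It was lower in Duplo at 29 °C (log2FC −7.19 ± 1.80, adjusted p = 0.0406), a call lost without any 1 of the 29 °C libraries except Drakkar replicate 2 (adjusted p = 0.0607 to 0.138), and it did not pass the low-count filter for Drakkar between temperatures. In Duplo its log2FC with temperature was −2.17, and 6.21 without Duplo 21 °C replicate 2.

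Its copy on A03, BnaA03g03740D, matched to the same Arabidopsis locus, had 1.76, 0.851 and 1.01 CPM in Drakkar at 21 °C and 215, 4.73 and 254 at 29 °C. In Duplo it had 0, 94.9 and 0.134 CPM at 21 °C and 1.80, 8.85 and 10.5 at 29 °C. The same 2 libraries stood apart in both copies.

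The C05 segment had the opposite direction. It ran from BnaC05g46700D to BnaC05g48700D, with 201 identifiers and 9 runs. Of 125 tested genes, 115 were higher in Duplo at 21 °C (92.0%) and 1 was lower (BnaC05g48450D), with a median log2FC of 4.53. At 29 °C 113 of 126 were higher (89.7%), with a median of 4.54. With the genes at 3 counts or fewer in a group set to that floor (37 and 44), the medians were 3.601 and 3.87. Its share of counts was 0.0568%, 0.0581% and 0.0564% in Drakkar at 21 °C and 0.0490%, 0.0573% and 0.0506% at 29 °C. In Duplo it was 0.303%, 0.345% and 0.334% at 21 °C and 0.342%, 0.349% and 0.314% at 29 °C. The varieties did not overlap and the mean in Duplo was 6.06-fold higher. This mean also includes the 21 °C libraries that chose the segment. At 29 °C alone the shares were 0.0490% to 0.0573% in Drakkar and 0.314% to 0.349% in Duplo. From 37 to 40 of its genes reached 1 CPM in a Drakkar library and from 108 to 117 in a Duplo library. The same filter in Duplo (1 CPM in every library, mean of 5 CPM or more) left 76 genes, with the same limit, as genes low in Duplo could not enter. Over these, the median level in the Drakkar libraries was 4.79% to 6.94% of the Duplo mean over both temperatures.

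BnaC05g48680D was the most extreme of its abundant genes, with 2.73, 3.00 and 2.12 CPM in Drakkar at 21 °C and 2.42, 1.50 and 1.19 at 29 °C. Its level in Duplo was 219, 293 and 336 CPM at 21 °C and 431, 554 and 244 at 29 °C. The varieties were far apart (log2FC 6.76 ± 0.220, SE, edgeR adjusted p = 3.62e-06 at 21 °C, and 7.98 ± 0.493, adjusted p = 0.000133 at 29 °C). BnaC05g47000D had 8.29, 9.01 and 8.70 CPM in Drakkar and 235, 265 and 252 in Duplo at 21 °C, and 5.27, 9.09 and 5.38 against 253, 219 and 192 at 29 °C (log2FC 4.86 ± 0.0860 at 21 °C). BnaC05g47450D (2.17) and BnaC05g47280D (1.90) had smaller log2FCs. No gene of this segment is named in the annotation used.

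The segment held 60.8% of the C05 genes higher in Duplo. Outside it, C05 took 4.97% to 5.13% of the counts in Drakkar and 4.90% to 5.10% in Duplo, and 74 of 2615 tested genes were higher and 68 lower. The place of this segment on the chromosome is not known. On C05 the order of the identifiers followed another *B. napus* assembly (Da-Ae, RefSeq) up to BnaC05g46800D, and the next gene matched in order of number, BnaC05g49340D, lay out of that order, so most of the segment falls between the last gene in order and the first out of it. For C03 the order held for the segment: 18 of its genes matched that annotation, and 17 of them lay on C3 in the same order.

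**Figure D4:**
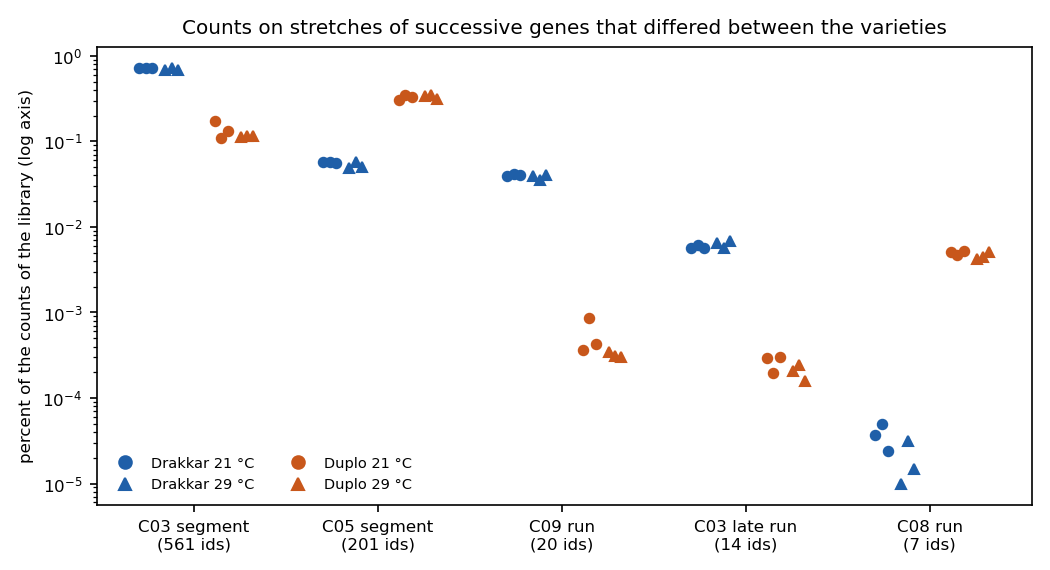
Share of the library's counts (percent, log axis) taken by the C03 segment, the C05 segment and 3 shorter runs (horizontal axis, with the number of identifiers in each) in each of the 12 libraries (points), with the variety as colour and the temperature as shape. The Drakkar libraries lie at 0.679% to 0.726% on C03 against 0.111% to 0.176% in Duplo, and at 0.0490% to 0.0581% on C05 against 0.303% to 0.349%.

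The A chromosomes were read in the same libraries for stretches of shifted windows, a step chosen after the data were seen. Windows of 40 tested genes with a median log2FC past 0.5 at 21 °C joined into 19 stretches on the A chromosomes and 7 on the C chromosomes, so a shifted stretch was common on A. The 21 °C values of a stretch, with its genes called, were thus partly fixed by this choice. The 29 °C libraries had no part in it. The 2 stretches with the opposite direction to the C segments, at the start of A03 and on A05, are given in full. A03 and A05 held further, weaker stretches in both directions. At the start of A03, from BnaA03g00020D to BnaA03g04390D, the median log2FC over 304 tested genes was 0.88 at 21 °C, and 108 of them were higher in Duplo (35.5%). At 29 °C the median over the 295 of them that were tested was 0.93. Over 168 genes, the Duplo libraries stood at 165%, 172% and 172% of Drakkar at 21 °C and 181%, 179% and 174% at 29 °C. On A05, from BnaA05g31770D to BnaA05g34190D, the median over 166 genes was −0.79 at 21 °C and −0.81 at 29 °C, and 34 genes were lower in Duplo (20.5%). There the Drakkar libraries stood at 175%, 170% and 176% of Duplo at 21 °C and 170%, 169% and 164% at 29 °C (98 genes). In both A stretches the median shift was less than 1 doubling, while the genes called at 21 °C (35.5% and 20.5%) were past it by the definition of a call. They were not alone: on A10, from BnaA10g25260D to BnaA10g27670D, the median over 155 genes was 0.90 at 21 °C and 0.86 at 29 °C, and on A03, from BnaA03g54270D to BnaA03g56230D, the median over 118 genes was 0.66 and 0.65. Whether these A and C stretches are partners gene by gene, and whether the DNA of the varieties differs there, was not tested.

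Other runs were short. They too were found in the 21 °C libraries, so shares of counts over both temperatures include the libraries that chose them. On C09, 16 genes from BnaC09g50520D to BnaC09g50710D had a median log2FC of −7.18 at 21 °C and −7.47 at 29 °C, where all 15 tested were called lower in Duplo. With 7 and 8 genes at the floor the medians were −5.25 and −5.55. They took 0.0354% to 0.0421% of the counts in Drakkar and 0.000302% to 0.000869% in Duplo, 91.0-fold less. At 29 °C alone the shares were 0.0354% to 0.0410% and 0.000302% to 0.000347%. On C03, outside the segment, the 10 genes from BnaC03g71260D to BnaC03g71390D had a median of −6.96 at 21 °C and −7.29 at 29 °C (−4.83 and −4.86 with 8 and 5 genes at the floor). Only 5 of them passed the filter for levels. Over these, Duplo 21 °C replicates 1, 2 and 3 stood at 0.461%, 1.21% and 1.04% of Drakkar. On C02, 8 genes from BnaC02g38000D to BnaC02g38180D had medians of −3.88 and −6.21 (−3.24 and −3.95 with 2 and 4 genes at the floor). The share of counts on this C02 run in Duplo at 21 °C was highest in replicate 1 (0.000738%, against 0.000410% and 0.000524%). In the other direction, 5 genes of C08 from BnaC08g45610D to BnaC08g45670D had medians of 5.04 and 7.32 (4.15 and 5.30 with 3 genes at the floor at each temperature), and a share of counts 173-fold higher in Duplo. The remaining 7 runs, on C01, C06, C07 and C08, were all higher in Duplo, with 5 genes each and median log2FCs from 1.47 (C07) to 8.21 (C06) at 21 °C, where the latter was 3.71 with 3 genes at the floor. The 2 C08 runs among them had 21 °C medians of 6.93 and 5.17 (2.425 and 2.74 with 3 and 1 genes at the floor). Across the stretch that joins them, BnaC08g41410D to BnaC08g41940D, 11 of 29 tested genes were higher in Duplo at 21 °C and 6 lower. At 29 °C, where 4 or 5 genes of each run were tested, 2 to 4 were called in the same direction. The medians ran from 1.14 to 5.21 (both on C06), and the latter was 2.89 with 2 genes at the floor. By the same comparison the late C03 run lay between the last gene in order (BnaC03g70460D) and the first out of it (BnaC03g71540D), so its genes are neighbours in number only, while the C09 run lay at the end of the part in order, whose last matched gene was BnaC09g50690D. The C06 runs all lay beyond the first gene out of order on C06 (BnaC06g21310D), so their genes too are neighbours in number only.

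Single genes with large differences were found on every C chromosome. Of the genes called in the same direction at both temperatures, the one with the largest fold in each direction is given for each chromosome. Lower in Duplo were BnaC08g39130D (113 to 208 CPM in Drakkar, 0 to 0.132 in Duplo), BnaC03g01450D in the C03 segment (85.5 to 155 against 0 to 0.134), BnaC09g50690D in the C09 run (87.9 to 108 against 0 to 0.0991) and BnaC04g00920D (47.2 to 59.8 against 0 in every library). BnaC04g00920D was thus at least 535-fold higher in Drakkar at 21 °C and at least 553-fold at 29 °C, with each Duplo library set to 3 counts. On the other chromosomes the genes were BnaC05g35480D (38.5 to 43.8 against 0 to 0.330 CPM), BnaC07g33960D (17.4 to 23.2 against 0), BnaC06g00400D (12.8 to 24.4 against 0), BnaC02g32230D (12.2 to 22.0 against 0) and BnaC01g07050D (6.48 to 8.73 against 0 to 0.226).

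Higher in Duplo was first BnaC04g48920D, with 0 to 0.376 CPM in Drakkar and 181 to 406 in Duplo (log2FC 10.6 ± 0.681, SE, edgeR adjusted p = 5.82e-05 at 21 °C). It was followed by BnaC03g70910D (0 to 0.224 against 56.6 to 65.5 CPM), BnaC05g48740D (0.0284 to 0.139 against 33.8 to 45.2), BnaC08g45610D (0 in every Drakkar library against 28.6 to 40.8) and BnaC02g09160D (0 to 0.0373 against 27.2 to 37.8). BnaC08g45610D was at least 474-fold higher in Duplo at 21 °C and at least 321-fold at 29 °C by the same floor. BnaC06g18110D (0 to 0.0568 against 18.1 to 30.4 CPM), BnaC01g32190D (0.0894 to 0.175 against 17.7 to 27.9), BnaC09g39490D (0 against 7.71 to 9.98) and BnaC07g30010D (0 to 0.112 against 5.34 to 11.6) were lower in abundance. The annotation used names none of these 18 genes.

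Genes on in one variety and off in the other were counted without a test. Off meant 3 counts or fewer in each of the 6 libraries of a variety, and on meant 1 CPM or more in each of the 6 of the other. Of 19376 C genes on in at least 1 variety, 162 were off in Drakkar (0.836%) and 120 off in Duplo (0.619%), beside 0.641% and 0.624% of all genes. On the A chromosomes 65 (0.339%) and 77 (0.402%) of 19174 were. C03 had 21 genes off in Drakkar and 39 off in Duplo, of which 21 lay in the segment. C05 had 33 off in Drakkar, 22 of them in the segment, and 7 off in Duplo, and C06 had 21 and 6. The other chromosomes had 12 to 18 off in Drakkar and 9 to 13 off in Duplo. With off set at 0 counts, 174 genes in place of 282 were on in one variety and off in the other. Successive genes off together were rare: BnaC05g47530D to BnaC05g47590D (4 genes), BnaC05g47660D to BnaC05g47720D (3 genes) and BnaC08g46880D to BnaC08g46910D (3 genes), all off in Drakkar and all beyond the last gene in order on their chromosome.

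Warm temperature was compared with the control within each variety. In Drakkar, 23821 C genes were tested, and 603 rose (2.53%) and 166 fell (0.697%) at 29 °C, beside 2.48% and 0.757% of all genes tested. On C05 81 rose (3.01%) and 14 fell, on C03 94 and 28, on C04 78 and 12, on C08 67 and 20, on C01 66 and 12, on C07 60 and 17, on C02 57 and 17, on C06 54 and 17, and on C09 46 (1.69%) and 29 (1.06%). More genes rose than fell on each chromosome. The counts rested on single libraries: 769 genes were called on the C chromosomes with all 6 libraries, 68, 64 and 6 without Drakkar 21 °C replicate 1, 2 or 3, and 161, 1452 and 100 without Drakkar 29 °C replicate 1, 2 or 3. Of the 40 genes called in Drakkar among those chosen for naming, 35, 36 and 40 lost the call without Drakkar 21 °C replicate 1, 2 or 3, and 28, 0 and 29 without Drakkar 29 °C replicate 1, 2 or 3, while 0 changed sign.

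In Duplo, 0 of 23392 C genes were called, beside 0.00194% of all genes tested. The lowest adjusted p on C was 0.0765, 4613 genes had an unadjusted p below 0.05, and DESeq2 called 403. The test of the difference between the varieties' responses called 0 of 25036 C genes (0% of all genes tested), with a lowest adjusted p of 0.0926, 1750 genes at an unadjusted p below 0.05, and 76 called by DESeq2. Without Duplo 29 °C replicate 3, 174 C genes were called in Duplo (91 rose and 83 fell), and without Duplo 21 °C replicate 2 the interaction called 81. The C genes called in Drakkar were therefore read in the Duplo libraries, which did not choose them. Of the 603 that rose in Drakkar (median log2FC 1.69), 510 were tested in Duplo and 463 had the same sign (90.8%, against 54.6% of all tested C genes), with a median log2FC of 0.86. Of the 166 that fell (median −1.39), 159 were tested and 139 had the same sign (87.4%, against 45.4%), with a median of −0.80. Without Duplo 29 °C replicate 3 the shares with the same sign were 65.7% and 80.2%, and the medians 0.36 and −0.65. Of the C03 segment, 350 genes were tested in Drakkar, of which 6 rose and 3 fell, and 204 in Duplo, with 0 called. Of the C05 segment, 60 were tested in Drakkar, of which 2 fell, and 132 in Duplo, with 0 called.

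**Figure D5:**
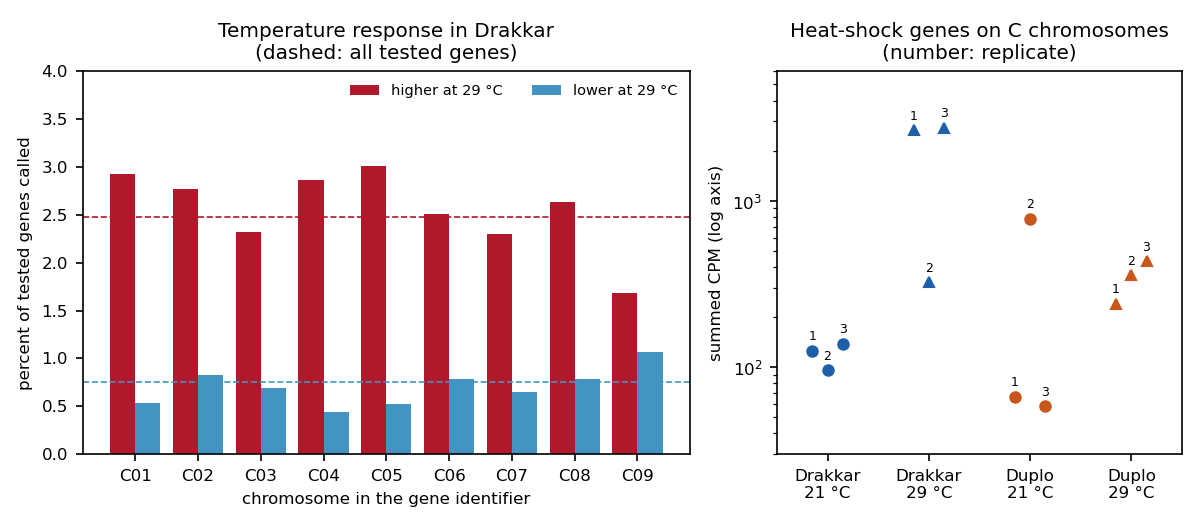
Response to warm temperature on the C chromosomes: the percent of the tested genes of each chromosome called in Drakkar in each direction (bars, left, with dashed lines at the 2.48% and 0.757% of all genes tested), and the summed CPM of the heat-shock list in each of the 12 libraries (points with the replicate number, right, log axis). Drakkar 29 °C replicates 1 and 3 (2661 and 2741 CPM) stood above every other library, and replicate 2 stood at 324 CPM.

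The genes with the largest changes in Drakkar included several heat-shock and chaperone genes. BnaC01g17140D encodes a small heat-shock protein of the mitochondrion. It had 0.0852, 0.300 and 0.179 CPM at 21 °C and 143, 11.04 and 193 at 29 °C in Drakkar (log2FC 9.07 ± 1.24, SE, edgeR adjusted p = 0.0182), and 0.119, 30.2 and 0.134 and then 9.18, 14.8 and 24.2 in Duplo (log2FC 0.605 ± 1.62, adjusted p = 0.855). BnaC05g17990D, a P23-1 co-chaperone of HSP90, had 0.0568, 0.0250 and 0.238 CPM at 21 °C and 65.9, 15.7 and 74.1 at 29 °C in Drakkar (log2FC 8.81 ± 0.860, adjusted p = 0.0089). BnaC07g26590D, a copy of ROF2, an FKBP-type co-chaperone, had 0.454, 0.751 and 0.924 CPM and then 357, 15.3 and 356 (log2FC 8.28 ± 1.25, adjusted p = 0.0213). BnaC04g00330D, a galactinol synthase (GolS1), had 0.142, 0.100 and 0.328 CPM and then 117, 10.8 and 80.7 (log2FC 8.39 ± 1.06, adjusted p = 0.0155). In each, replicate 2 was the lowest Drakkar library at 29 °C. In Duplo the P23-1 gene had 0.0889, 3.30 and 0.0334 CPM at 21 °C and 9.90, 11.9 and 13.4 at 29 °C, without overlap. Its log2FC there was 3.32 ± 1.22 (edgeR adjusted p = 0.211, not called). The log2FC in Duplo was −0.68 for ROF2 and 0.43 for GolS1, neither called, with Duplo 21 °C replicate 2 at 65.7 and 6.18 CPM.

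The 24 C genes of the heat-shock list came from names in the study's own tables, which were chosen on these samples, so their direction is not independent evidence. In Drakkar 21 were tested, 12 rose and 1 fell (median log2FC 3.06), and in Duplo 21 were tested and 0 called (median −0.10). That median rested on single libraries: it was 2.15 without Duplo 21 °C replicate 2, where 22 were tested, 90.9% had a positive log2FC and 0 were called, and −0.60 to 0.11 without any other Duplo library. The summed level of the list was 125, 96.1 and 138 CPM in Drakkar at 21 °C and 2661, 324 and 2741 at 29 °C. In Duplo it was 66.3, 781 and 58.3 CPM at 21 °C and 240, 356 and 434 at 29 °C. Drakkar 29 °C replicate 2 and Duplo 21 °C replicate 2 thus stood apart from their groups, and the part of these libraries in the count of calls was not tested beyond leaving them out. Between the varieties at 21 °C 0 of 16 tested genes were higher in Duplo and 1 lower, and at 29 °C 0 of 23 were higher and 6 lower (median −2.45). HSA32 (BnaC07g36650D), which encodes a heat-stress-associated protein, rose in Drakkar (log2FC 6.79 ± 0.818, edgeR adjusted p = 0.0145).

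The other lists came from the same tables, with the same limit. Among cell wall genes 13 of 21 tested rose and 3 fell (median log2FC 1.48), among peroxidase and catalase genes 13 of 17 rose and 1 fell (2.24), among ethylene genes 9 of 15 rose (1.59), among nitrate genes 2 of 6 rose and 3 fell (0.15), and among abscisic acid genes 2 of 4 rose (1.53). In Duplo 0 genes of each list were called, with medians of 0.58 (abscisic acid), 0.60 (nitrate), 0.89 (peroxidase and catalase), 1.06 (cell wall) and 1.10 (ethylene). Without Duplo 29 °C replicate 3 these were 0.05, 0.64, −0.04, 0.51 and 0.40, with 4 cell wall genes and 1 ethylene gene called higher and 1 ethylene and 1 nitrate gene called lower. Without Duplo 21 °C replicate 2 the abscisic acid median was 1.73. XTH24 (BnaC07g42500D), an enzyme that remodels the xyloglucan of the wall, had 2.50, 1.63 and 1.73 CPM at 21 °C and 22.8, 6.30 and 19.8 at 29 °C in Drakkar, and rose (log2FC 2.93 ± 0.465, edgeR adjusted p = 0.0241). In Duplo it had 1.19, 0.727 and 1.04 CPM and then 2.84, 1.77 and 3.20 (log2FC 1.37 ± 0.306, adjusted p = 0.113), and it was lower in Duplo at 29 °C (log2FC −2.56 ± 0.488, adjusted p = 0.0134), or 0.0572 without Duplo 29 °C replicate 2. The cytokinin-degrading CKX1 (BnaC04g01930D, log2FC 4.03 ± 0.793), the sucrose-proton symporter SUC7 (BnaC06g32880D, 1.98 ± 0.207) and the peroxidase PRX52 (BnaC09g50000D, 5.64 ± 1.28) also rose in Drakkar. So did the catalase CAT3 (BnaC08g19360D, edgeR adjusted p = 0.0281), which had 0 reads in all 3 libraries at 21 °C and 0.917, 0.348 and 1.16 CPM at 29 °C, at least 9.70-fold higher with each 21 °C library set to 3 counts. In Duplo SUC7 went from 2.55, 6.97 and 2.84 CPM to 17.6, 24.0 and 30.7 (log2FC 2.51 ± 0.444, edgeR adjusted p = 0.0944, not called). CKX1 had 0 reads in Duplo at 21 °C and 0.379, 0.339 and 0.213 CPM at 29 °C, and was not tested there. BnaC03g22600D, a pectin lyase-like protein, had 3 counts or fewer in every 21 °C library and was at least 16.7-fold higher at 29 °C in Drakkar (adjusted p = 0.0114) and at least 14.1-fold higher in Duplo (adjusted p = 0.0826, not called).

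Among the genes that fell in Drakkar, BnaC02g12680D went from 16.9, 22.1 and 15.5 CPM to 0.426, 0.731 and 0.0373 (log2FC −5.59 ± 0.521, edgeR adjusted p = 0.0089). Its levels in Duplo were 13.5, 12.2 and 6.44 and then 1.48, 1.62 and 1.88 CPM (log2FC −2.73 ± 0.318, adjusted p = 0.0888). BnaC04g28450D went from 15.3, 15.2 and 14.2 to 0.818, 0.139 and 0.261 CPM in Drakkar (log2FC −5.28 ± 0.438, adjusted p = 0.00766), and in Duplo from 8.51, 40.0 and 0.701 to 0.0315, 0.301 and 0.888, where the groups overlapped (log2FC −5.39 ± 1.57, adjusted p = 0.152). BnaC01g27600D (−3.52 ± 0.465), BnaC05g10460D (−3.47 ± 0.380) and BnaC09g53770D (−4.68 ± 0.564) also fell. The nitrate transporter NRT2:1 (BnaC08g43380D) had 2.19, 3.68 and 1.34 CPM at 21 °C and 0.164, 0.731 and 0.187 at 29 °C in Drakkar (log2FC −2.84 ± 0.612, adjusted p = 0.0429). In Duplo it had 0.534, 0.727 and 0.634 CPM and then 2.59, 1.32 and 0.142, which overlapped (log2FC 1.06 ± 0.812, adjusted p = 0.487).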

How the data were processed

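RNA of 0.5 cm (methods) or 1 cm (labels) root tips was sequenced by the authors as stranded mRNA libraries (TruSeq, paired reads) and aligned with HISAT2 to the rapeseed reference genome. They deposited whole-number read counts per gene, without normalization. The counting program, its use of strand and its treatment of reads with several places are not given in the sources used here. The deposited tables of fold changes and p-values were not used.

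Members and lists were chosen with earlier results of these data known. Counts were fitted with edgeR 4.0.16 (R 4.3.3; filterByExpr, TMM, quasi-likelihood test) on all genes, with 6 libraries per comparison and all 12 for the interaction of variety and temperature. A call needed an adjusted p below 0.05 and a log2FC past 1. CPM used library totals without TMM. The unnamed row (0 to 2 reads per library) was left out. The genes named were the C genes with primers, the largest variety fold in each direction per chromosome among genes called alike at both temperatures (groups at the floor set to 3 counts), the highest and lowest log2FC per chromosome in Drakkar, the ends of the 3 longest runs, and the heat-shock list; further genes of the segments were chosen after their values were seen. Segments (runs at most 20 tested genes apart), windows of 40 genes and the levels per library were also added after the data were seen. Alternatives were DESeq2 1.42.0, library totals, filters, other limits for runs, a replicate block and each library left out. No libraries agreed within sampling noise. The scripts were tested on simulated data. Gene names came from the study's supplementary tables, and the identifier order was checked against RefSeq's table of the Da-Ae assembly (1725 C genes matched, 1591 on the same chromosome).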

Additional observations from a re-analysis of the deposited data

Results flagged for a closer look

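In 24 sets of 6 libraries (the share of counts on each C chromosome, on all of them and on both segments, by variety), 4 had 1 library farther from the rest than Dixon's 95% limit, which chance passes in about 1 of 20 sets. Duplo 21 °C replicate 1 stood at 0.176% of counts on the C03 segment, against 0.111% to 0.134% in the other Duplo libraries. Drakkar 29 °C replicate 3 stood at 3.71% on C02 (others 3.39% to 3.499%) and at 8.496% on C03 (others 8.59% to 8.65%). Duplo 29 °C replicate 1 stood at 3.55% on C02 (others 3.67% to 3.73%). No cause was tested.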

How the results depend on the processing

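The number of C genes called between the varieties stayed within 1.5 times the value given under every alternative. Temperature calls did not: Drakkar had 258 with the replicate block and 6 to 1452 with 1 library left out, Duplo had 403 with DESeq2 and 0 to 174 with 1 library left out, and the interaction had 76 with DESeq2 and 0 to 81. Correlations of same-numbered libraries ran from −0.285 to 0.409, with mixed signs in most pairs of groups. Between the varieties at 29 °C all were positive (0.0887 to 0.409), while libraries with different numbers ran from −0.354 to 0.275. Whether replicate numbers pair the samples there was not tested further. Under the block Duplo and the interaction again had 0 calls. Library totals alone moved the median log2FC of C genes in Drakkar from 0.02 to 0.14 and gave 858 genes higher and 119 lower. The C chromosomes held 130 runs with 722 genes at 3 or more successive genes, 21 runs at 8 or more, and 250 run genes at a log2FC past 2. With 1 library left out or another test or filter, 395 to 427 of the 427 run genes were still called. The C03 segment held 202 tested genes when joined at 10, and 122 to 347 with 1 library left out. Genes on in one variety and off in the other numbered 174 with off at 0 counts, 422 at 10 counts or fewer and 423 with on at 0.5 CPM, against 282. Their runs numbered 1 at 0 counts, 10 at 10 counts or fewer and 7 with on at 0.5 CPM, and a limit of 5 genes left 0. Leaving out the 100 genes with the highest counts gave C shares of 45.3% (Drakkar) and 45.1% (Duplo), and counting named chromosomes only 49.7% and 49.3%. Per library, 23655 and 23294 C genes had 10 counts or more and 22279 and 22047 had 0.5 CPM or more. Signs turned for a few uncalled log2FCs. BnaC02g00690D (BnACT7) had 0.025 in Drakkar and −0.032 at 29 °C between the varieties with library totals, and −0.063 to 0.19 at 29 °C with 1 library left out. With 1 library left out, BnaC03g05240D had −2.76 to 6.21 in Duplo, BnaC03g18850D (HB3) −1.08 to 0.084 and BnaC03g21240D (PYL4) −0.041 to 0.26 between the varieties at 29 °C, and BnaC03g33040D (STE1) −0.065 to 0.10 and BnaC06g32880D −0.18 to 0.71 at 21 °C. BnaC04g00410D (SAM1) had −2.35 to 1.77 in Duplo, and −0.63 with the replicate block. The causes were not tested. Depth limits statements on genes near 3 counts.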
